A study of Mus musculus with 8 samples.

Results

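Nuclear receptors are transcription factors, most of which are switched by small fat-soluble molecules such as steroid hormones, thyroid hormone, retinoids, fatty acids, oxysterols and drugs. The 36 genes described here are nuclear receptors that lie outside the circadian core loop, taken by symbol from 55487 gene identifiers, each with 1 row of counts. The rule that chose them uses names and no measured value, although it was drawn up with earlier results of these data known. Another 13 nuclear receptor genes, among them the REV-ERB genes of the clock, Ppara and Hnf4a, were used for comparison, giving 49 in all.

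The libraries were bulk RNA-seq of the stromal vascular fraction, which here means the GFP-negative cells sorted from subcutaneous tumors of the mouse colorectal cancer line MC38. There were 4 libraries from Bmal1+/+ mice and 4 labelled Bmal1-/-, 1 library per sample. Bmal1, listed as Arntl, is the DNA-binding partner of CLOCK in the circadian loop. The knockout was in the whole host animal and not in the implanted tumor cells, the colony was bred from heterozygous founders, and no other allele or treatment was given for these samples. Age, sex and time of day at collection were not given in the sources used here. Total counts were between 14783346 and 18449143 in the Bmal1+/+ libraries and between 14054825 and 15624815 in the others, so that a count of 3, the floor used here, is worth 0.163 to 0.213 CPM (counts scaled to a common library total). The labels do not say whether the samples came from separate animals, so p-values measure only the spread between these samples, which may be technical.

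Several measurements concern every result, and some go against the labels. The targeted gene was at 0.960 to 2.71 normalised CPM in the Bmal1+/+ libraries and at 30.1 to 35.0 in the libraries labelled Bmal1-/-, higher under the knockout label, so the latter are named by their label throughout. The summed level of 6 clock output genes, Nr1d1 among them, was 496 to 617 normalised CPM in the Bmal1+/+ libraries. In the libraries labelled Bmal1-/- it was 153 to 211, lower under the knockout label. Xist was at 844 to 1095 normalised CPM in the Bmal1+/+ libraries and at 0.142 to 0.749 in the others, whereas the Y-linked Ddx3y was at 0 and at 58.1 to 61.2, so the sex transcripts and the genotype label cannot be told apart. The hepatocyte gene Alb alone held 64318 to 71872 normalised CPM in the Bmal1+/+ libraries and 12744 to 18830 in the others, in a fraction labelled as tumor stroma. Replicate 4 of the libraries labelled Bmal1-/-, numbered so in its description but titled KO6, stood apart from its group, with a chi-square per degree of freedom of 144 to 167 against the other 3, which differed from each other by 44.6 or less. In these bulk samples fewer cells of a type and less RNA per cell cannot be told apart.

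Most nuclear receptors bind DNA as dimers at copies of a short half-site, AGGTCA or a variant of it, and many need RXR as their partner. In liver, CAR and PXR control the enzymes that clear drugs and bile products, LXR controls sterol handling, PPARs control fatty acid use and the glucocorticoid receptor controls the response to fasting and stress. BMAL1 with CLOCK binds the E-box CACGTG.

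To show which of these motifs stand next to the receptors' own transcription start sites, RefSeq promoter windows on GRCm38.p6, from 250 bases before to 50 bases after a start, were searched on both strands. Windows were given for 32 of the 36 genes, and the shares count genes with a match in any of their windows. Among these genes the number of windows ran from 1, as for Nr1i3, to 4, as for Rara and Esrrg, and all 27025 genes had 32851 windows. A gene with more windows has more chances of a match, and the shares were not adjusted for this. CACGTG was found for 3 of 32, Rara, Thrb and Nr1i3, which is 9.38% against 8.09% of 27025 genes. The variant CACGTT was found for Esrrg and Rarg, 6.25% against 5.44%. The half-site AGGTCA was found for 8 of 32, 25.0% against 18.1%, and its extended form TAGGTCA, which contains it, for 0 of 32 against 2.97%. The D-box letters TTATGTAA or TTACGTAA were found for 0 of 32 against 1.23%. The E-box matches and the half-sites of the called receptors are printed, since these are the motifs of the factor named in the labels and of the receptors themselves. Each line runs 5′ to 3′ on the strand of the gene, with the match in capitals.
Rara, E-box, 12 to 17 bases after a start, chr11:98937696-98937725, plus strand: tttcagcctctgCACGTGactcgccatggc
Thrb, E-box, -193 to -188, chr14:17981439-17981468, plus strand: tcatttcctaatCACGTGgaaagaggttaa
Nr1i3, E-box, -244 to -239, chr1:171213720-171213743, plus strand: aaactgCACGTGaaaaagcttgcc
Esrrg, CACGTT on the other strand, -4 to 1, chr1:187651742-187651771, plus strand: catgcaaagagaAACGTGcacataccacgc
Rarg, CACGTT, -174 to -169, chr15:102246657-102246686, minus strand: tgtgcactattgCACGTTtgcaaatttgtg
Pparg, half-site, -28 to -23, chr6:115361104-115361133, plus strand: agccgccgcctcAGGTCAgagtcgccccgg
Pparg, half-site at another start, -9 to -4, chr6:115362328-115362357, plus strand: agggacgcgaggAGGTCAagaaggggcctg
Rara, half-site at another start, 33 to 38, chr11:98964893-98964921, plus strand: gcagattgcagcAGGTCAgtcctttggac
A match describes letters only. Of the 5 genes with an E-box form, Rara was higher in the libraries labelled Bmal1-/-, Esrrg was lower, and Thrb, Nr1i3 and Rarg were not called.

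Of the 36 receptors, 30 had enough counts to be tested and 6 did not. With edgeR's quasi-likelihood test and Benjamini-Hochberg adjustment over 14353 genes, 5 were higher in the libraries labelled Bmal1-/- (Ppard, Nr4a1, Thra, Rara and Nr2f6) and 9 were lower (Esr1, Nr4a3, Esrrg, Rarb, Nr4a2, Nr1h5, Nr3c2, Pparg and Nr1i2) at an adjusted p below 0.05. Among all genes tested 31.1% were called, 14.9% higher and 16.2% lower, and among the 30 receptors 46.7% were called. The median log2 fold change of the 30 was -0.31, and that of all genes was 0.02. The groups did not overlap for 14 of the 30, against 33.4% of all genes tested. By the study's own criterion, an absolute log2 fold change above 1 with an unadjusted p below 0.05, 10 of 30 passed, against 14.1% of all genes. Without the library that stood apart, 5 were higher and 9 lower.

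**Figure D1:**
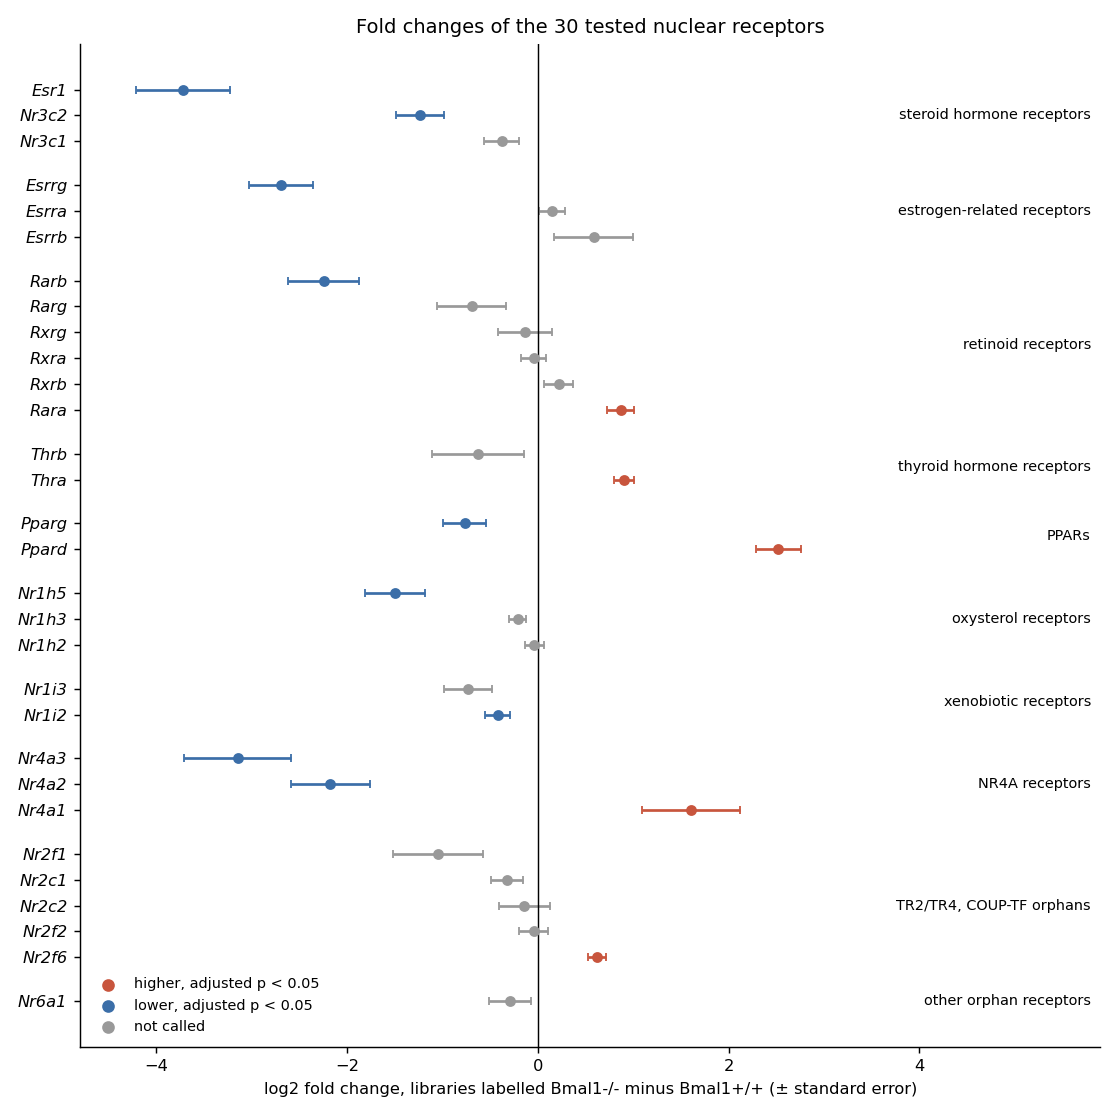
Log2 fold change (libraries labelled Bmal1-/- minus Bmal1+/+) with its standard error for the 30 tested nuclear receptors, grouped by family. Red points are the 5 called higher, blue points the 9 called lower and grey points the 16 not called. Esr1 lies lowest at -3.72 and Ppard highest at 2.52.

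Among the steroid hormone receptors, Esr1, which encodes the estrogen receptor alpha, had the lowest fold change of the 30. Its normalised CPM was 109.6, 98.9, 90.9 and 90.9 in the 4 Bmal1+/+ libraries and 5.00, 4.43, 2.70 and 17.4 in the libraries labelled Bmal1-/-, a 13.2-fold difference of the means (log2 fold change -3.72, SE 0.49, adjusted p = 0.00052). The groups did not overlap, and replicate 4 was the highest of the low group. Without that library the log2 fold change was -4.58.

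Nr3c2, the mineralocorticoid receptor, also fell, from 9.57, 10.9, 14.6 and 19.9 normalised CPM to 6.62, 6.51, 4.13 and 6.04 (log2 fold change -1.24, SE 0.25, adjusted p = 0.0049). Every library labelled Bmal1-/- lay under every Bmal1+/+ library, and the lower group was the tighter one. Nr3c1, the glucocorticoid receptor, was at 84.0 to 125.4 normalised CPM in the Bmal1+/+ libraries and at 62.7 to 101.4 in the others, ranges that overlap (log2 fold change -0.38, SE 0.18, adjusted p = 0.15). Pgr, the progesterone receptor, had 0 to 3 counts per Bmal1+/+ library and 0 to 4 in the others, and was not tested.

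The estrogen-related receptors are orphan receptors that drive mitochondrial and oxidative genes. Esrrg was at 9.03, 9.09, 7.26 and 11.02 normalised CPM in the Bmal1+/+ libraries and at 2.31, 0.623, 0.996 and 1.63 in the libraries labelled Bmal1-/-, 6.55-fold lower (log2 fold change -2.69, SE 0.33, adjusted p = 0.00033). The gap between the groups was wider than the spread within either. Esrra, the most abundant of the family, was at 25.4 to 34.9 and 28.0 to 39.5 normalised CPM (log2 fold change 0.15, SE 0.14, adjusted p = 0.44), and Esrrb, at 3.12 or under in every library, had a log2 fold change of 0.58 (SE 0.41, adjusted p = 0.31).

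The retinoic acid receptors moved in opposite directions. Rara, the widely expressed form, was at 17.0, 15.4, 13.4 and 13.5 normalised CPM in the Bmal1+/+ libraries and at 26.5, 21.5, 29.3 and 30.9 in the libraries labelled Bmal1-/- (log2 fold change 0.87, SE 0.14, adjusted p = 0.0015). Rarb, the form that retinoic acid itself induces, fell from 4.39, 6.15, 3.02 and 3.62 to 0.624, 0.415, 1.35 and 1.22 (log2 fold change -2.25, SE 0.37, adjusted p = 0.0018). Neither gene's groups overlapped. Rarb shares 1793 exonic bases with Top2b, which runs on the opposite strand at 52.7 to 65.3 and 46.0 to 58.2 normalised CPM and was not called (log2 fold change -0.15, adjusted p = 0.32). Whether the counting used strand was not stated.

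Rarg was not called, with a wide spread of 2.39 to 9.03 normalised CPM in the Bmal1+/+ libraries and 3.13 to 4.82 in the others (log2 fold change -0.69, SE 0.36, adjusted p = 0.18). Among the RXRs, the shared dimer partners, Rxra was at 470.5, 535.4, 612.1 and 474.5 normalised CPM and at 495.6, 524.4, 449.0 and 561.5. These groups overlapped almost fully (log2 fold change -0.04, SE 0.13, adjusted p = 0.83). Rxrb (0.22, SE 0.16) and Rxrg (-0.13, SE 0.28) were likewise not called.

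Thra, the thyroid hormone receptor alpha gene, rose by a similar amount in every library labelled Bmal1-/-, from 11.2, 11.3, 12.4 and 10.6 normalised CPM to 20.5, 23.7, 21.2 and 19.6 (log2 fold change 0.90, SE 0.11, adjusted p = 0.00028). The lowest value of the higher group was above the highest of the other. Thra shares 263 exonic bases with the clock gene Nr1d1 on the opposite strand, which was at 38.4 to 52.4 normalised CPM in the Bmal1+/+ libraries and at 1.56 to 4.13 in the others, a change in the other direction. Thrb, the beta form that predominates in liver, was not called. It was at 32.9, 32.5, 27.2 and 52.6 normalised CPM against 32.0, 30.6, 4.13 and 27.3, so that replicate 3 of the libraries labelled Bmal1-/- lay far under the rest (log2 fold change -0.62, SE 0.48, adjusted p = 0.36, and -0.29 without that library). Vdr, the vitamin D receptor, had 3 to 5 counts in the Bmal1+/+ libraries and 0 in all 4 others, which allows up to 0.192 to 0.213 CPM there.

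Ppard, a fatty acid sensor expressed in most tissues, had the highest fold change of the 30 and the smallest adjusted p. It was at 11.02, 15.7, 10.4 and 11.2 normalised CPM in the Bmal1+/+ libraries and at 96.5, 67.2, 44.6 and 69.7 in the libraries labelled Bmal1-/-. The means were 12.1 ± 2.45 and 69.5 ± 21.2 (SD, n = 4), a 5.74-fold difference (log2 fold change 2.52, SE 0.23, adjusted p = 6.21e-05 by edgeR's quasi-likelihood test), and the groups lay far apart although the higher group was more spread.

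Pparg, the regulator of fat cell formation, fell from 8.01, 9.22, 7.32 and 9.47 normalised CPM to 3.12, 6.23, 4.41 and 6.24 (log2 fold change -0.77, SE 0.22, adjusted p = 0.027). The groups did not overlap, yet the call was lost when replicate 2 or 4 of the Bmal1+/+ libraries or replicate 3 of the others was left out, with an adjusted p of 0.064 to 0.068. The 4 adipocyte markers, Adipoq, Plin1, Lep and Cidea, were under 1 normalised CPM in every library.

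The oxysterol receptors LXR alpha and beta switch on cholesterol export and fatty acid synthesis. Nr1h3, LXR alpha, was at 92.2, 82.8, 85.0 and 78.3 normalised CPM in the Bmal1+/+ libraries and at 76.4, 74.9, 70.8 and 70.1 in the libraries labelled Bmal1-/-. The groups did not overlap but lay close together, and the gene was not called (log2 fold change -0.21, SE 0.09, adjusted p = 0.099). Nr1h2, LXR beta, was at 27.9 to 34.4 and 29.2 to 31.5 (log2 fold change -0.03, SE 0.10, adjusted p = 0.81).

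Nr1h5, FXR beta, a sterol receptor that is a functional gene in mice, fell from 5.18, 2.43, 4.17 and 6.07 normalised CPM to 1.19, 1.87, 1.99 and 1.29 (log2 fold change -1.50, SE 0.31, adjusted p = 0.0058). The gap between the lowest Bmal1+/+ library and the highest of the others was small.

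Both xenobiotic receptors, which are abundant in hepatocytes, had lower means in the libraries labelled Bmal1-/-. Nr1i2, PXR, was at 125.4, 148.2, 128.4 and 126.2 normalised CPM and at 116.3, 103.4, 95.4 and 79.0, without overlap (log2 fold change -0.42, SE 0.13, adjusted p = 0.033). The call was lost with library size alone (adjusted p = 0.054), with no filter on low counts (0.060) and when replicate 1, 2 or 3 of the Bmal1+/+ libraries or replicate 2 or 3 of the others was left out (0.054 to 0.087). Nr1i3, CAR, was at 329.0, 318.2, 387.7 and 313.6 normalised CPM against 186.3, 190.5, 318.5 and 117.6. Its groups overlapped through replicate 3 of the libraries labelled Bmal1-/- alone.

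Nr1i3 was not called (log2 fold change -0.73, SE 0.25, adjusted p = 0.054), while DESeq2 gave an adjusted p of 0.018, limma-voom gave 0.036 and leaving out that replicate 3 gave a log2 fold change of -1.05 with an adjusted p of 0.0047. It shares 3304 exonic bases with Tomm40l on the opposite strand, which was lower too (log2 fold change -0.70, adjusted p = 0.0072).

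The NR4A receptors are immediate early genes, induced fast by growth signals and stress. Nr4a1 was at 13.6, 11.5, 21.6 and 16.4 normalised CPM in the Bmal1+/+ libraries and at 104.4, 33.0, 40.99 and 13.4 in the libraries labelled Bmal1-/- (log2 fold change 1.61, SE 0.51, adjusted p = 0.038). Replicate 4 of the latter lay within the Bmal1+/+ range, and replicate 1 was far above the other 3. The call was lost in 9 of the 17 alternatives, among them leaving out that replicate 1, which gave a log2 fold change of 0.89 (adjusted p = 0.090), limma-voom (0.096) and leaving out any Bmal1+/+ library (0.051 to 0.096).

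The other NR4A genes were scarce and lower. Nr4a2 was at 1.505, 1.601, 1.81 and 1.002 normalised CPM and at 0.437, 0.346, 0.427 and 0.0678, the latter being 7, 5, 6 and 1 counts (log2 fold change -2.17, SE 0.42, adjusted p = 0.0039). Nr4a3 was at 0.963, 0.896, 1.81 and 1.95 and at 0.187, 0.277, 0 and 0.136, the latter being 3, 4, 0 and 2 counts (log2 fold change -3.15, SE 0.56, adjusted p = 0.0025). No library of the lower group reached the other group for either gene. Since the Nr4a3 counts of the lower group lie at or near the floor of 3, the size of its fold change is uncertain and depends on the prior count, with -2.46 at a prior count of 2.

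**Figure D2:**
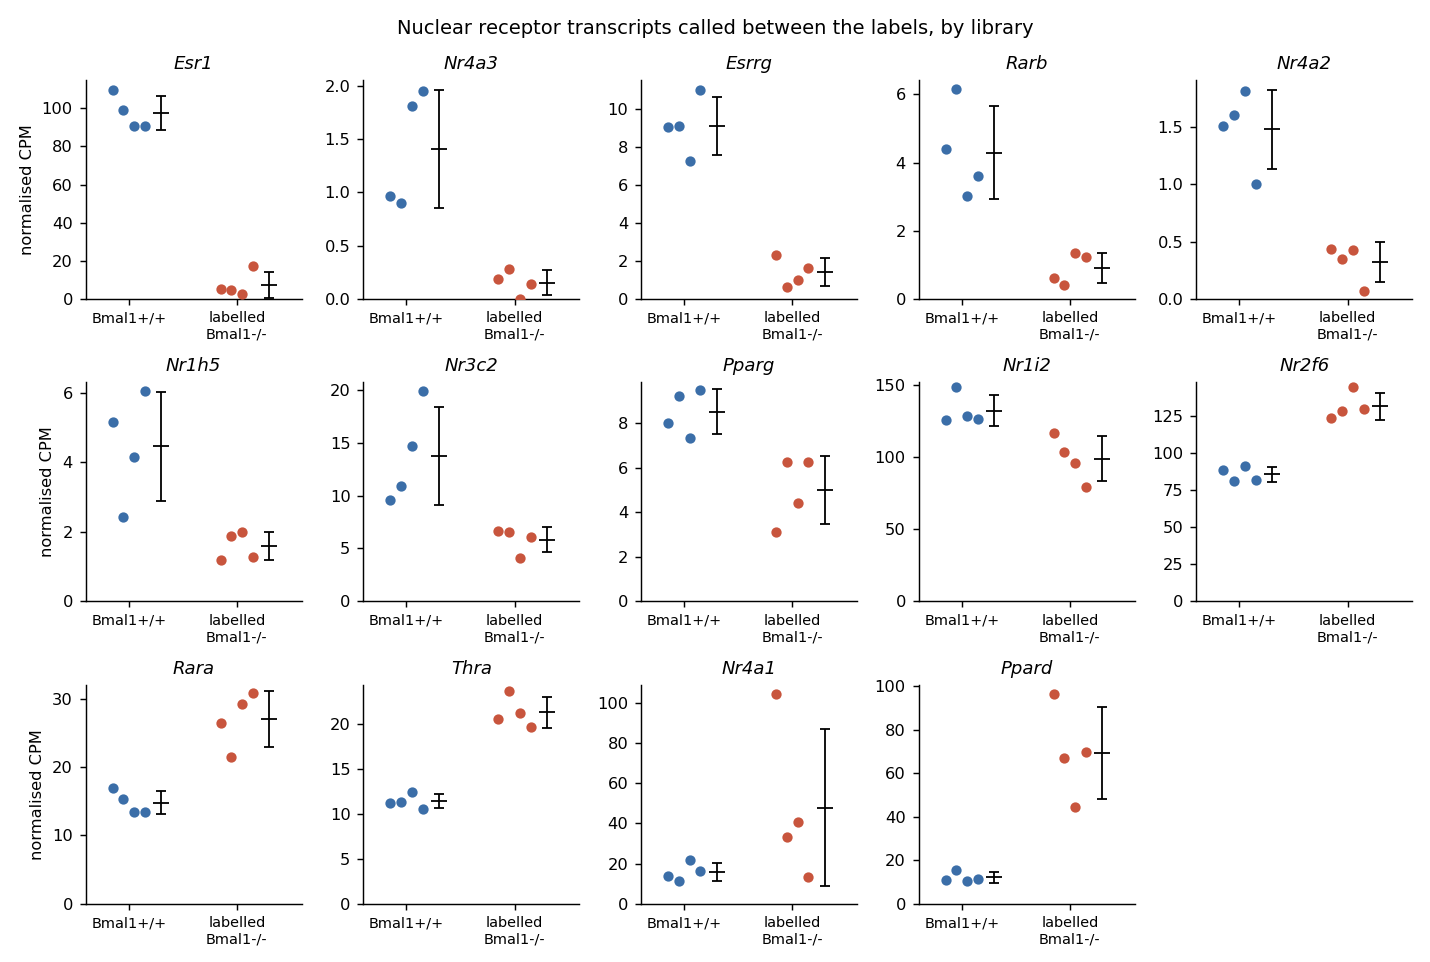
Normalised CPM of the 14 called nuclear receptors in each library, ordered by fold change, with 4 Bmal1+/+ libraries in blue and 4 labelled Bmal1-/- in red, and the mean with its SD in black beside each group. Each panel has its own axis from 0. Nr4a1 is the panel in which the groups overlap, and in Ppard the lowest red point, 44.6, is above the highest blue point, 15.7.

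Among the orphan receptors, Nr2f6, also called EAR2, was higher. It was at 88.6, 81.1, 91.2 and 82.1 normalised CPM in the Bmal1+/+ libraries and at 123.8, 128.5, 144.7 and 129.7 in the libraries labelled Bmal1-/-, 1.54-fold higher with a small spread in both groups (log2 fold change 0.62, SE 0.09, adjusted p = 0.0011). It shares 1622 exonic bases with Ocel1 on the opposite strand, which was at 23.0 to 28.4 and 25.6 to 34.8 and was not called. The related COUP-TF genes were not called, Nr2f2 with a log2 fold change of -0.04 (SE 0.15) and Nr2f1, at 1.67 normalised CPM or under, with -1.05 (SE 0.47, adjusted p = 0.12). Without replicate 3 of the libraries labelled Bmal1-/-, the log2 fold change of Nr2f1 was -1.67 with an adjusted p of 0.020. The testicular receptors Nr2c1 (-0.32, SE 0.17) and Nr2c2 (-0.14, SE 0.27) and the germ cell nuclear factor Nr6a1 (-0.29, SE 0.22) were not called either.

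Of the receptors that were too low to test, Nr2e3, Nr0b1 and Nr5a1, which belong to photoreceptors and to steroid-making tissues, had 0 counts in all 8 libraries. Hnf4g had 3, 0, 5 and 6 counts in the Bmal1+/+ libraries and 0 in the others. No fold change is given for the 6 untested receptors.

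Levels of different genes were compared per kilobase of merged exon. In the Bmal1+/+ libraries the highest mean levels were those of Rxra (95.8 ± 12.1 normalised CPM per kilobase, SD, n = 4), Nr1i3 (76.4 ± 7.77), Nr1i2 (51.7 ± 4.25), Nr1h3 (33.6 ± 2.29) and Nr2f6 (28.7 ± 1.65). The ranges of Rxra and Nr1i3 overlapped, while each of the next steps down to Nr3c1 (13.5 ± 2.27), Nr1h2 (9.33 ± 0.799) and Esr1 (7.14 ± 0.649) was free of overlap. From Esr1 down to Rarb every neighbouring pair overlapped. The first 3 held 60.6% of the summed level of the 36 receptors, 369 ± 19.2, and in the libraries labelled Bmal1-/- the first 3 held 54.2% of 338 ± 22.4.

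In the libraries labelled Bmal1-/- Rxra was again first (92.9 ± 8.70), its range clear of Nr1i3 (46.0 ± 19.0), which overlapped with Nr2f6 (44.1 ± 3.04). Ppard went from place 22 to place 8 (1.61 ± 0.327 to 9.25 ± 2.83 normalised CPM per kilobase), Nr4a1 from 12 to 6 and Esr1 from 8 to 24 (0.541 ± 0.495). The number of receptors at 1 normalised CPM per kilobase or more was 25 in the Bmal1+/+ libraries and 20 in the others. The order depends on the length used. By the deposited FPKM, Nr1i2 was above Nr1i3 in both groups, and in the Bmal1+/+ libraries Nr1h2 (mean FPKM 3.18) was below Esr1 (5.08), Esrra (4.44) and Nr4a1 (4.13).

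**Figure D3:**
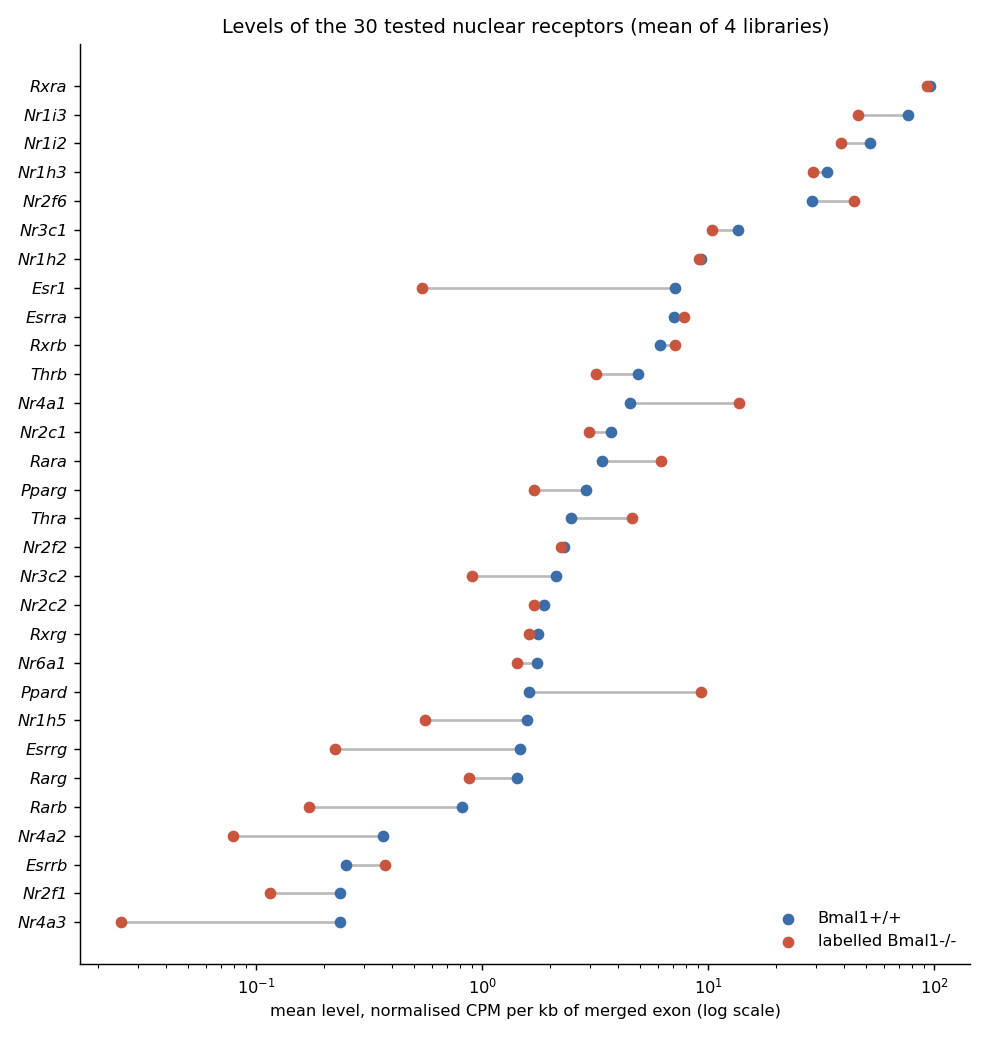
Mean level of the 30 tested nuclear receptors in normalised CPM per kilobase of merged exon on a log scale, blue for the 4 Bmal1+/+ libraries and red for the 4 labelled Bmal1-/-, joined by a grey line and ordered by the Bmal1+/+ level. The long lines are those of Esr1, Nr4a3 and Esrrg to the left and of Ppard to the right, while the points of Rxra, at 95.8 and 92.9, nearly coincide.

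Within families the same values can be read as shares, given here as a description without a test. Ppard made up 3.12%, 3.31%, 2.20% and 2.90% of PPAR transcripts per length in the Bmal1+/+ libraries and 24.4%, 20.2%, 21.9% and 30.6% in the libraries labelled Bmal1-/-. Ppara, the hepatocyte form, went from 91.9% ± 1.35 to 70.9% ± 5.74 (SD, n = 4), and Pparg, at 5.21% ± 0.998 and 4.82% ± 2.09, kept an overlapping share. The Ppard share was above the Bmal1+/+ range in every library labelled Bmal1-/-.

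Rara went from 61.4% ± 7.69 to 85.5% ± 2.13 of RAR transcripts and Rarb from 14.5% ± 2.90 to 2.28% ± 0.920, while the Rarg share overlapped. Thra went from 34.5% ± 7.41 to 62.2% ± 18.1 of thyroid hormone receptor transcripts, with 89.2% in replicate 3, the library with low Thrb, and 50.7% to 55.4% in the other 3. Esrrg went from 17.0% ± 3.98 to 2.78% ± 1.75 of estrogen-related receptor transcripts. Of 26 such shares 14 did not overlap between the groups, and the same count was found with the deposited FPKM in place of CPM per kilobase. Levels of single genes, a different measure from shares, did not overlap for 33.4% of all genes tested. The Thra and Thrb shares mirror each other, so both are counted although the level of Thrb overlapped. The shares of a family are bound to each other, so that a change in a single gene moves the rest. They are thus not separate results. The share of Rxra among the RXRs, 92.4% ± 0.466 and 91.3% ± 1.09, overlapped.

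**Figure D4:**
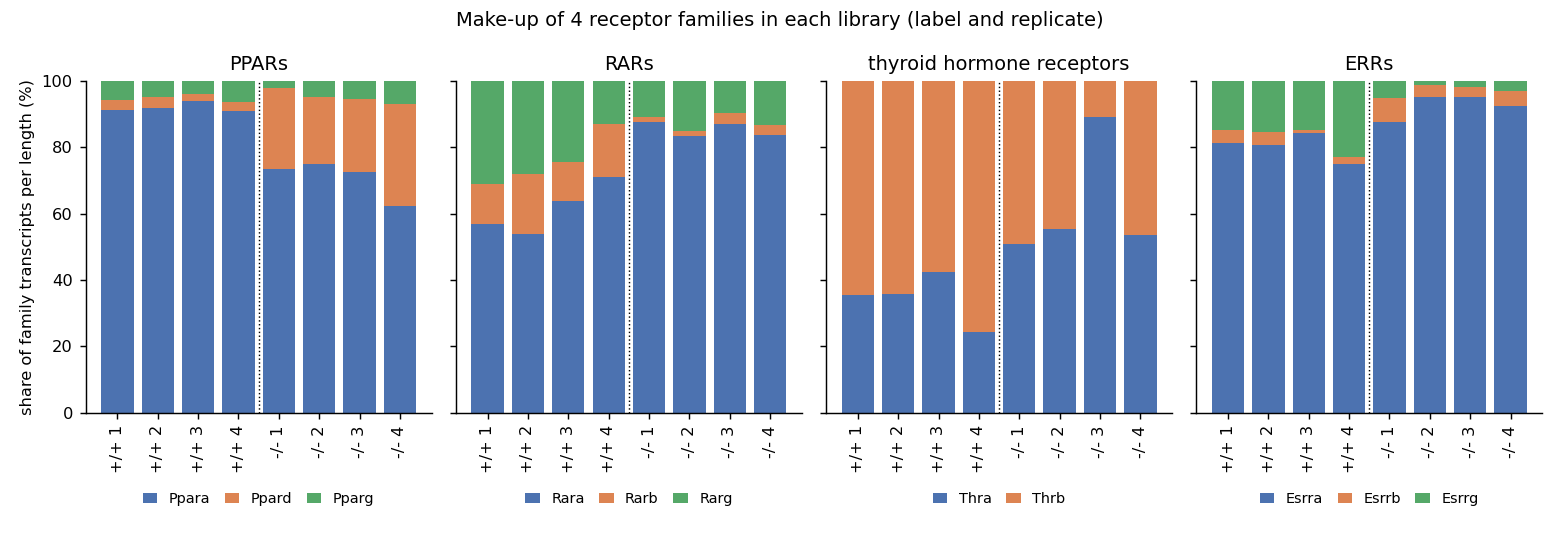
Share of each gene in its family's transcripts per length (percent, stacked to 100) for the PPARs, RARs, thyroid hormone receptors and estrogen-related receptors, with a bar for each library named by label and replicate. The Ppard segment is 2.20% to 3.31% in the Bmal1+/+ bars and 20.2% to 30.6% in the bars labelled Bmal1-/-.

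The other nuclear receptors and their cofactors give the setting. Of the 13 receptors outside the list 10 were tested, 1 was higher and 4 were lower. That is 10.0% higher and 40.0% lower, against 14.9% and 16.2% of all genes tested. The 2 with the lowest fold changes were the clock repressors Nr1d1 (log2 fold change -3.97, SE 0.24) and Nr1d2 (-3.58, SE 0.17). Without replicate 3 of the libraries labelled Bmal1-/- the count of higher receptors was 2, since Rora was then called (log2 fold change 0.50, adjusted p = 0.034).

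Of 21 coregulators, the proteins that receptors recruit to activate or silence genes, 0 were higher and 3 were lower, with a median log2 fold change of -0.01. That is 0% higher and 14.3% lower, against 14.9% and 16.2% of all genes tested. No edgeR, DESeq2 or limma-voom setting called any coregulator higher, and at an unadjusted p below 0.05 the count was 2. The lower ones were the coactivators Ppargc1a, which drives mitochondrial genes (log2 fold change -1.50, SE 0.22, adjusted p = 0.0010), and Ncoa7 (-1.29, SE 0.27, adjusted p = 0.0056), and the corepressor Nrip1 (-0.82, SE 0.26, adjusted p = 0.038). The Nrip1 call was lost in 8 of 17 alternatives.

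Genes known as targets of these receptors were counted by list. Of 76 targets 68 were tested, 8 were higher and 23 were lower, with a median log2 fold change of -0.26. That is 11.8% higher and 33.8% lower, against 14.9% and 16.2% of all genes tested. Among 14 CAR and PXR targets, 3 were higher (21.4%) and 8 lower (57.1%), with a median of -1.24. Cyp2c55 and Cyp2c29, drug-metabolizing cytochromes, had log2 fold changes of 4.42 (SE 0.48) and 1.22 (SE 0.18), whereas the efflux pump Abcb1a (-5.45, SE 0.24) and the stress gene Gadd45b (-4.60, SE 0.51) fell. Genes of this list moved in both directions, but its higher share was nearer to that of all genes than its lower share.

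Among 6 thyroid hormone receptor targets 1 was higher, Klf9 (log2 fold change 0.51, SE 0.12), and 4 were lower, led by the lipogenic genes Me1 (-2.81, SE 0.33) and Thrsp (-2.81, SE 0.40). Those are 16.7% and 66.7% of the list, against 14.9% and 16.2% of all genes tested. Without replicate 3 labelled Bmal1-/- 2 were higher. Of 11 LXR targets 1 was higher (9.09%) and 4 were lower (36.4%), against the same shares of all genes. The higher gene was the lipoprotein lipase Lpl, at 10.2 to 15.3 normalised CPM in the Bmal1+/+ libraries and at 275 to 505 in the others (log2 fold change 5.16, SE 0.24), and among the lower ones were the phospholipid carrier Pltp (-1.93, SE 0.18) and the desaturase Scd1 (-1.82, SE 0.38). Without replicate 4 labelled Bmal1-/- 2 were higher and 5 lower.

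Of 8 tested PPAR gamma and delta targets 1 was higher and 3 were lower, with the fatty acid carrier Fabp4 at a log2 fold change of 0.71 (SE 0.18), the fatty acid uptake gene Cd36 at -2.17 (SE 0.29) and Mogat1 at -1.85 (SE 0.45). The shares higher and lower were 12.5% and 37.5%, against 14.9% and 16.2% of all genes tested. The remaining 4 were not called, and the Fabp4 call was lost with the replicate numbers as a block (adjusted p = 0.056). Of 6 tested retinoic acid receptor targets 1 was higher, the retinal reductase Dhrs3 (0.95, SE 0.17), and 2 were lower. The lower ones were the retinoic acid hydroxylase Cyp26a1 (-1.80, SE 0.43) and Lrat (-1.11, SE 0.21), which esterifies retinol. In this list 16.7% were higher and 33.3% lower. Lrat is also among the fibroblast and stellate cell markers counted as lower further on.

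Of the target lists with tested genes, that of the glucocorticoid receptor had the smallest share called, 6.67% against 31.1% of all genes tested. By edgeR 0 of 15 were higher, 0 at an unadjusted p below 0.05 and 0 with DESeq2 or limma-voom. The 1 lower gene was the receptor's own chaperone cofactor Fkbp5 (log2 fold change -0.87, SE 0.21), and the median was -0.04. The count of lower genes was 3 without replicate 4 and 2 without replicate 1 of the libraries labelled Bmal1-/-, and 2 without replicate 1 of the Bmal1+/+ libraries. Of 8 ERR alpha targets, 1 was higher, the citrate synthase gene Cs (log2 fold change 0.56, SE 0.13), and 1 was lower. Each is 12.5% of that list, near the 14.9% higher and 16.2% lower of all genes tested. The lower count was 2 when replicate 3 labelled Bmal1-/- was left out. The 3 vitamin D receptor targets had too few counts to be tested.

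**Figure D5:**
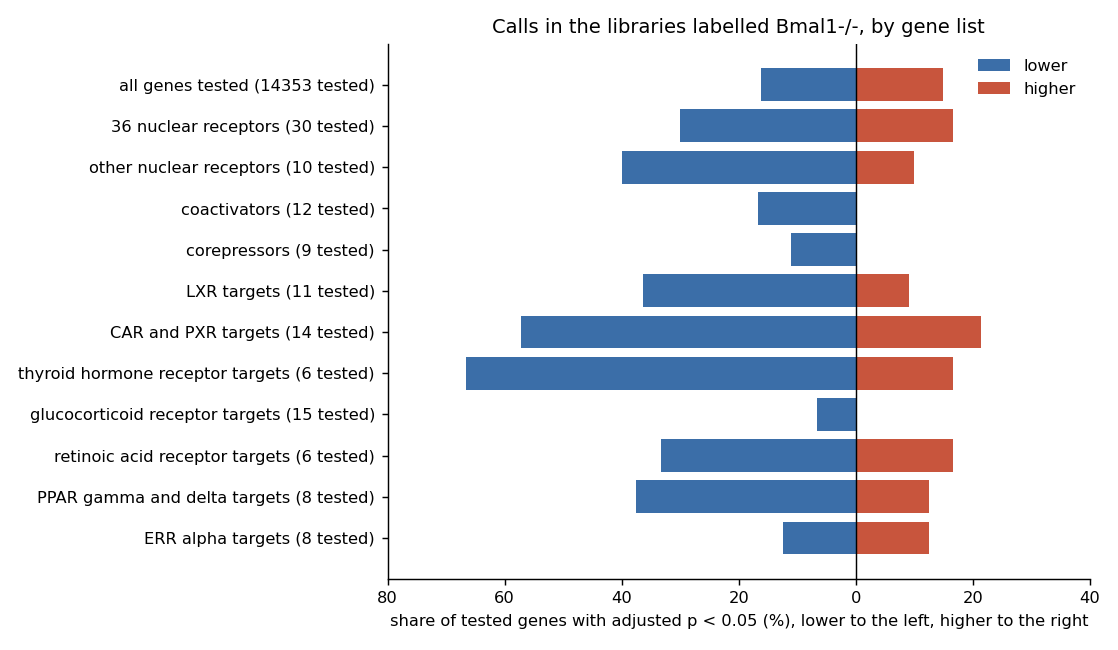
Share of tested genes called at an adjusted p below 0.05 in each receptor, coregulator and target list drawn (percent), lower to the left in blue and higher to the right in red, beside the 14.9% higher and 16.2% lower of all 14353 genes tested. Among the lists drawn, thyroid hormone receptor targets and CAR and PXR targets have the longest blue bars, and the coactivators and corepressors have no red bar.

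Cell type markers moved with the labels as well, and their part in the receptor results was not tested. Of 49 markers tested 6.12% were higher and 40.8% lower, against 14.9% and 16.2% of all genes tested. The summed level of 11 hepatocyte genes was 98120 to 111992 normalised CPM in the Bmal1+/+ libraries and 54451 to 66720 in the others, with 2 higher, 1 lower and 8 not called. It was 1 higher without replicate 2 or 4 of the Bmal1+/+ libraries and 2 lower without replicate 4 of the others. The lower one was Alb, and Apoa1 rose (log2 fold change 1.58). Markers of macrophages and Kupffer cells summed to 508 to 640 and 223 to 461, with 7 of 8 lower, endothelial markers to 289 to 333 and 198 to 271, with 5 of 7 lower (3 without replicate 1 or 2 of the Bmal1+/+ libraries, replicate 2 or 4 of the others, or the filter on low counts), and fibroblast and stellate cell markers to 154 to 243 and 116 to 123, with 5 of 9 tested lower. Cholangiocyte markers summed to 26.8 to 39.0 and 44.5 to 138.0, with 1 of 4 tested higher and 2 lower. When each library was left out in turn 1 was lower, and 2 were higher without replicate 2 or 3 labelled Bmal1-/-, as with DESeq2. T and NK cell markers summed to 4.97 to 6.18 and 2.28 to 5.37, and B cell markers to 2.90 to 3.49 and 2.25 to 3.06. Neutrophil markers summed to 6.92 to 10.6 and 2.63 to 41.5, the highest value being in replicate 4 of the libraries labelled Bmal1-/-. Of the T and NK cell, B cell and neutrophil markers edgeR called 0, with 1 at an unadjusted p below 0.05, DESeq2 called 0 and limma-voom called 1. Without replicate 4 of the libraries labelled Bmal1-/- 4 were called, 1 higher and 3 lower, without replicate 1 of these 2, and without replicate 2 or 3 of these or replicate 2 of the Bmal1+/+ libraries 1.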

How the data were processed

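RNA of the sorted stromal fraction was sequenced in 8 libraries. According to the methods, read pairs were aligned by the authors with HISAT (genome GRCm38) and assigned to genes by StringTie, whereas the submitters' notes name CASAVA 1.8 and TopHat2 2.0.6. The authors deposited counts, which are whole numbers without normalization, and FPKM. Dividing counts by their library's sum and a constant gene length gave the deposited FPKM for 100% of 11442 genes with at least 20 counts, within 1%. That length was the sum of all distinct annotated exons for 97.8% of 11435 genes, at the median 1.36 times the merged exon length, so levels between genes were computed as normalised CPM per kilobase of merged exon, and the deposited FPKM served as an alternative chosen after seeing the data. Symbols, coordinates and exons came from GENCODE M21 of GRCm38, which matched 99.53% of 55487 identifiers.

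Counts were tested with edgeR 4.0.16 under R 4.3.3, by glmQLFit and glmQLFTest after filterByExpr and TMM scaling (prior count 0.125), all 8 libraries in a single fit, with Benjamini-Hochberg adjustment over 14353 genes and a common dispersion of 0.0506. Sample groups came from the genotype labels and replicate numbers from the descriptions (the library titled KO6 is described as replicate 4), and no batch was given. The numbers were checked for pairing: same-numbered samples correlated at -0.06 to 0.06 in their deviations from the group means. On simulated data with 200 of 14173 genes changed, the test recovered 5.97% at a 1.5-fold change, 50.7% at 2-fold and 98.5% at 4-fold, and 6 of 109 calls were false. The floor of 3 counts served only to state what a low count is worth in CPM, and it entered no test. Alternatives used RLE, upper-quartile or library-size scaling, DESeq2 1.42.0, limma-voom 3.58.1, other filters, a prior count of 2, a replicate block and leaving out each library. Figures used Python 3.11.15 and matplotlib 3.10.9.

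All 36 receptors are named. Of the other lists, up to 2 called genes with the largest fold change in each direction are named, except that the results of 2 genes are not reported here, and Rora, Tomm40l, Top2b, Ocel1 and the markers were named after their values were seen. The receptors and all lists were chosen with earlier results of these data known.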

Additional observations from a re-analysis of the deposited data

Results flagged for a closer look

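In 6 of 110 groups of 4 libraries examined, over the receptors and the named genes, the highest or lowest value stood apart from the other 3 by a gap past Dixon's critical value for 4 samples, and chance alone flags about 1 in 20 groups, or 5.5. Esr1 was at 17.4 normalised CPM in replicate 4 of the libraries labelled Bmal1-/-, against 2.70 to 5.00 in the other 3. In the same library the LXR target Pltp was at 28.2 against 18.6 to 20.01, and the fatty acid uptake gene Cd36 was at 26.6 against 17.0 to 18.1. Thrb was at 4.13 normalised CPM in replicate 3 of the libraries labelled Bmal1-/-, against 27.3 to 32.0. In replicate 2 of the Bmal1+/+ libraries, Ppard was at 15.7 against 10.4 to 11.2 and Nr1i2 was at 148 against 125 to 128.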

How the results depend on the processing

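Over 17 alternatives the count of receptors called higher was 4 to 5, the count called lower was 7 to 10 and the count past the study's criterion was 8 to 11. The count of other nuclear receptors called higher was 1 to 2 when each library was left out in turn. Of 510 values of the 30 tested receptors, 477 kept direction and side of the threshold, 19 lost a call (Pparg, Nr1i2 and Nr4a1), 7 gained a call (Rarg, Nr1i3, Nr2c1 and Nr2f1) and 7 changed sign. The latter belonged to 5 uncalled receptors with a library left out, whose log2 fold changes then ran from -0.098 to 0.040 for Rxra (positive without replicate 3 of Bmal1+/+), -0.30 to 0.051 for Rxrg (replicate 4), -0.096 to 0.012 for Nr1h2 (replicate 2), -0.37 to 0.093 for Nr2c2 (replicate 2) and -0.19 to 0.059 for Nr2f2 (replicate 3, or replicate 1 or 4 labelled Bmal1-/-). The causes were not tested. The replicate numbers share only a number, since 2 of 8 samples correlated best with their own number. With them as a replicate block, Nr1i3 was called (adjusted p = 0.023) and Nr4a1 (0.092) and Fabp4 (0.056) were not, and the median of all genes moved by no more than 0.05 under any scaling. Receptors with a handful of counts have no test. Changes of 1.5-fold were seldom recovered in the simulation, where 200 of 14173 genes were changed. In the data 4457 of 14353 genes were called, which makes the adjusted threshold less strict. The simulated recovery therefore need not hold for the data.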

Other observations

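Of the 36 receptors, 20 overlap another annotated gene and 11 share exonic bases with one. Among the called receptors, 4 share exonic bases with a gene of at least 1 normalised CPM in some library. Besides Thra, Rarb and Nr2f6, this is Nr3c2, which shares 247 bases with the antisense Gm10649 at 0.241 to 0.512 normalised CPM in the Bmal1+/+ libraries and 0.277 to 1.21 in the others.

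With the deposited FPKM in place of CPM per kilobase of merged exon, Nr1i3 made up 43.1% of CAR and PXR transcripts in the Bmal1+/+ libraries instead of 59.6%, and 36.9% instead of 52.9% in the libraries labelled Bmal1-/-. No share of any of the 26 changed its direction between the groups with this change.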
